A study of Mus musculus with 14 samples.

Results

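The 10 genes described here encode receptors through which acetylcholine, serotonin, dopamine and adenosine act on hippocampal cells: the muscarinic receptors Chrm1, Chrm2 and Chrm3, the nicotinic receptor subunits Chrna4, Chrna7 and Chrnb2, the serotonin receptors Htr1a and Htr4, the dopamine receptor Drd1 and the adenosine receptor Adora1. They were taken by gene symbol from the count tables, which hold 55291 genes, and the 10 genes all passed the expression filter that left 22150 genes for testing. RNA came from dentate gyri cut with a scalpel out of mouse entorhino-hippocampal slice cultures, which were prepared at postnatal day 4 to 5 and matured in medium with horse serum for 18 days or longer. The wildtype group (APP+/+, C57BL/6J) holds 6 libraries and the APPko group (APP-/-, animals of an APP-deficient line) holds 8, each from a single dentate gyrus. The labels name no drug or stimulus in either group. Whether wildtype and APPko animals were littermates, and which cultures came from the same animal, is not stated, so p-values measure the spread between cultures, part of which may be technical. The column headers of the tables end in f or m, with 3 f and 3 m libraries in wildtype and 7 f libraries and 1 m library in APPko.

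As background, acetylcholine reaches the dentate gyrus from the septal area, serotonin from the raphe and dopamine from the midbrain, and the cell bodies of these neurons lie outside the slice, while adenosine is formed locally, largely from released ATP. Muscarinic, serotonin, dopamine and adenosine receptors of this set signal through G proteins. Chrm1 and Chrm3 couple to Gq and phospholipase C, Chrm2, Htr1a and Adora1 to Gi, which lowers cyclic AMP, and Htr4 and Drd1 to Gs or Golf, which raise it. Chrna4 and Chrnb2 form the common heteromeric nicotinic channel of the brain and Chrna7 forms a homomeric, calcium-permeable one.

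Total counts per library ran from 16686909 to 31031126. App itself lay between 679 and 964 CPM (the gene's count relative to the library's TMM-scaled total) in wildtype and between 182 and 231 CPM in APPko, with no overlap (log2 change -1.92, edgeR adjusted p = 9.2e-09), so each library went with its label. Of 12 granule cell markers 11 had a negative log2 change (median -0.275, against -0.013 over all tested genes), and 3 of them fell. Prox1, the defining transcription factor, was present in each library, with 106 to 200 CPM in wildtype and 107 to 207 CPM in APPko. The defining markers of cholinergic neurons were close to 0: Slc18a3, the vesicular acetylcholine transporter, had 12 counts over the 14 libraries and none in 10 of them, and Chat, the enzyme that makes acetylcholine, had 129 counts in all. The transporters that mark serotonin and dopamine neurons, Slc6a4 and Slc6a3, had 91 and 69 counts. Not all aminergic markers were this low. The 9 of the list summed to 21.0 to 36.6 CPM in wildtype and 21.3 to 25.6 CPM in APPko, with Slc18a2 (under other observations) the larger part. The TMM factors of wildtype libraries 2 and 3, 0.852 and 0.847, were lower than those of the other 12 libraries (0.976 to 1.091). For the members, the estimates without this pair are given where they turn direction or move by over 1.5 times. In bulk tissue a change in the number of cells that carry a receptor and a change in its RNA per cell cannot be told apart.

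Per kilobase of exon, the scale on which different genes can be compared, Adora1 had the highest level of the 10 in wildtype, 11.3 ± 3.60 CPM per kb (values after ± are SDs, over 6 wildtype and 8 APPko libraries unless another n is given), followed by Chrm1 with 8.51 ± 1.77. Adora1 was the higher of the pair in 5 of 6 wildtype and 8 of 8 APPko libraries, although their wildtype ranges overlapped. Chrm1 in turn exceeded Htr1a (4.33 ± 1.18 CPM per kb) in each of the 14 libraries, and Htr1a lay above Chrna4 in each of them, with no overlap of the wildtype ranges. Chrna4 (1.83 ± 0.266), Chrnb2 (1.63 ± 0.199), Drd1 (1.48 ± 1.12), Chrm3 (1.27 ± 0.510) and Htr4 (1.22 ± 0.388 CPM per kb) formed a middle group, in which no neighbour was the higher one in every library. Chrm2 with 0.652 ± 0.278 and Chrna7 with 0.319 ± 0.109 CPM per kb were the lowest, and Chrm2 exceeded Chrna7 in 6 of 6 wildtype and 6 of 8 APPko libraries. By the mean over all 14 libraries per kb, the members ranged from the percentile 16.7 (Chrna7) to 81.2 (Adora1) of the tested genes. The exon lengths include stretches shared with coding genes on the opposite strand, 20.1% for Adora1 and 16.3% for Chrnb2. The levels per kb of Adora1 and Chrnb2 therefore depend on how reads there were counted, which is not known.

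**Figure D1:**
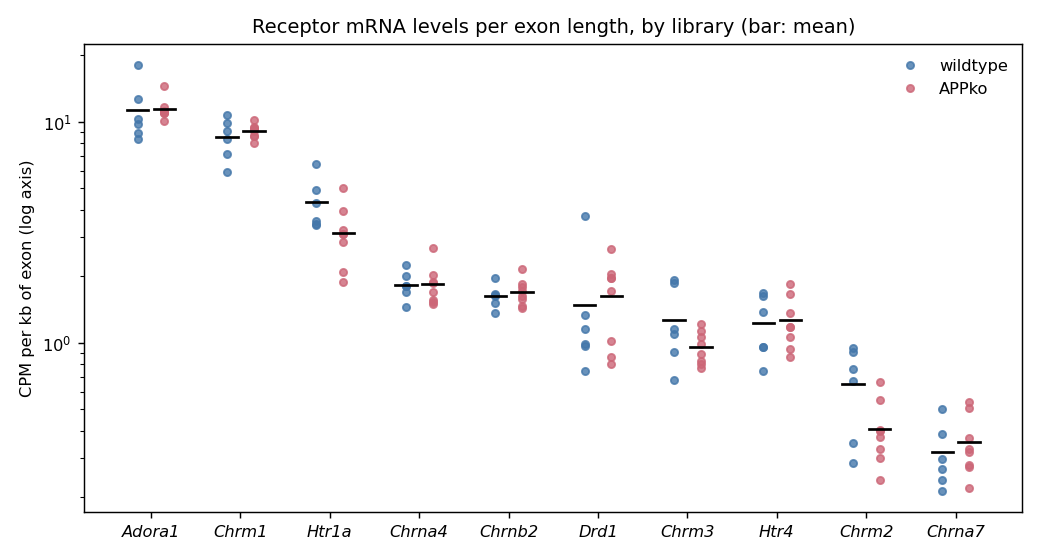
Level of each receptor mRNA per kilobase of exon (log axis), with a point per library and a bar at the group mean, for 6 wildtype and 8 APPko libraries. Adora1 and Chrm1 lie highest, at group means of 8.51 to 11.4 CPM per kb, and Chrm2 and Chrna7 lowest, at 0.319 to 0.652.

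Promoter windows from RefSeq (GRCm38.p6, 250 bases before to 50 after a gene's start) were used for 8 of the 10 genes, with 10 windows. Chrm1 had no matched window and Htr4 was left out of this count. The member windows below, with the richest and poorest, are therefore those of the other 8 genes only. The dinucleotide CG, which reads the same on both strands, was counted because it separates CpG-rich from CpG-poor promoters. Over 32851 windows of the same length the median was 7 CG, and 9 of the 10 member windows held at least as many. The richest member window, that of Chrna7, and the poorest among genes with a single matched window, that of Htr1a, are printed to show both ends of this range. CG is in capitals, and the sequences run 5′ to 3′ on the gene's strand, for Chrna7 chr7:63212477-63212776 (minus strand) and for Htr1a chr13:105443443-105443742 (plus strand).
Chrna7: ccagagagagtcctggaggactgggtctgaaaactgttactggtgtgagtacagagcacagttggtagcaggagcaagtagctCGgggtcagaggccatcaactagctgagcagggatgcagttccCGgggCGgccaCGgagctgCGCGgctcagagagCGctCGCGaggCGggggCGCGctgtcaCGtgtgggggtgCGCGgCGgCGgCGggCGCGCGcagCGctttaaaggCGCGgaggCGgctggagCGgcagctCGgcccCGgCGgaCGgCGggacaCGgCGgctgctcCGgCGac
Htr1a: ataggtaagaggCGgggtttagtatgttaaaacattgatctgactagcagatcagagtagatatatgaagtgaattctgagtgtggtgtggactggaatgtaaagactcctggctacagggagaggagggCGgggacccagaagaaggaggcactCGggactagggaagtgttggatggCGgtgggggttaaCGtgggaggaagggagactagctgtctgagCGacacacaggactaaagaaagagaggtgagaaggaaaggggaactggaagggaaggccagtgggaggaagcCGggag
The Chrna7 window held 35 CG, a number that 7.0% of all windows reach, and the Htr1a window held 7, which 52.1% reach. The other windows held 33 (Chrna4), 26 and 24 (Adora1), 23 and 6 (Drd1), 16 (Chrm2), 12 (Chrnb2) and 11 (Chrm3).

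The comparison of genotypes asked whether loss of the amyloid precursor protein goes with a different level of these receptor mRNAs. None of the 10 members passed the edgeR quasi-likelihood test at an adjusted p of 0.05, a threshold that 2.35% of all tested genes passed (0.944% higher and 1.41% lower in APPko). At an unadjusted p of 0.05, 2 of 10 members passed, Chrm2 and Htr1a, against 20.4% of all tested genes, so the share among the members is near the background. Both were lower in APPko, as were 11.4% of all tested genes at that threshold. DESeq2 and limma's voom with quality weights also called 0 of the 10, with 10.6% (6.14% lower) and 1.6% (0.781% lower) of the genes they tested called. In f libraries alone 1 of 10 passed, Htr1a, against 15.6% of the genes tested there. The estimated log2 change was positive for 7 members and negative for 3, with a median of 0.032 against -0.013 over all tested genes. In each of the 10 genes the ranges of wildtype and APPko overlapped. The share of all tested genes with such overlap was not counted, so this is not a trait particular to the receptors.

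**Figure D2:**
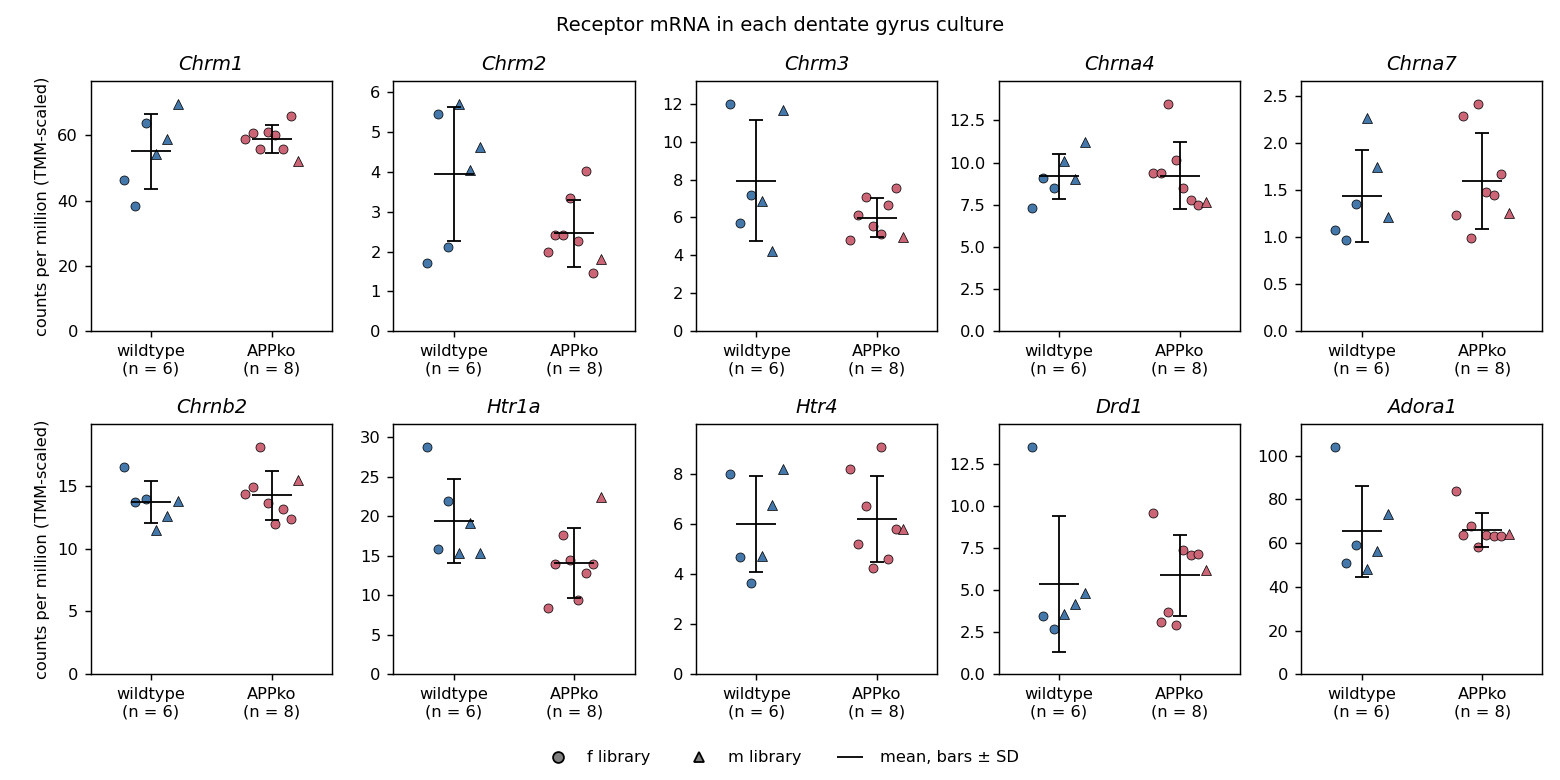
Level of each receptor mRNA in CPM, with a point per library (circles f, triangles m) and the mean ± SD of 6 wildtype and 8 APPko libraries; each axis starts at 0. The groups overlap for all 10 genes, a count that was not made for all tested genes. Wildtype library 1 stands highest for Drd1, at 13.5 CPM, and Adora1, at 104 CPM.

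Among the muscarinic receptors, Chrm1 (ENSMUSG00000032773.9, chromosome 19, 8663789 to 8683587, GRCm38), the main Gq-coupled receptor of hippocampal principal neurons, ran from 38.4 over a median of 56.6 to 69.7 CPM in wildtype and from 52.1 over 59.6 to 66.0 CPM in APPko. The APPko values lay inside the wildtype range, with a coefficient of variation of 7.22% against 20.8%. The log2 change was 0.092 (SE 0.12, edgeR adjusted p = 0.71), and its 95% interval spans 0.901-fold to 1.26-fold. Without wildtype libraries 2 and 3 it was 0.0435 (edgeR adjusted p = 0.91). Chrm2 (ENSMUSG00000045613.9, chromosome 6, 36388084 to 36528414), the Gi-coupled receptor known as an autoreceptor and from inhibitory neurons, ran from 1.72 over 4.34 to 5.71 CPM in wildtype and from 1.45 over 2.33 to 4.03 CPM in APPko. 4 of 6 wildtype libraries lay above every APPko library, and wildtype libraries 1 and 3, at 1.72 and 2.12 CPM, lay among them. The log2 change of Chrm2 was -0.68 (SE 0.27, 95% interval -1.26 to -0.10), the estimate farthest from 0 among the members, with an edgeR adjusted p of 0.17. In f libraries alone it was -0.28 (edgeR adjusted p = 0.63), with 3.10 ± 2.06 CPM over the 3 wildtype libraries and 2.56 ± 0.861 CPM over the 7 of APPko. The wildtype m libraries had 4.80 ± 0.841 CPM (SD, n = 3) and the single APPko m library 1.81 CPM.

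Chrm3 (ENSMUSG00000046159.16, chromosome 13, 9875486 to 10360847), the other Gq-coupled receptor measured, ran from 4.23 over 7.02 to 12.0 CPM in wildtype and from 4.80 over 5.85 to 7.58 CPM in APPko. Wildtype libraries 1 and 6, at 12.0 and 11.7 CPM, lay above all APPko libraries, and the other 4 lay at 4.23 to 7.17 CPM. The log2 change was -0.40 (SE 0.21, 95% interval -0.84 to 0.030, edgeR adjusted p = 0.28). It was -0.24 without wildtype library 1 and -0.26 without wildtype library 6 (edgeR adjusted p = 0.52 and 0.50). Of the remaining muscarinic genes, Chrm4 and Chrm5 had 28 and 80 counts over the 14 libraries and were not tested.

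For the nicotinic subunits the estimates were all close to 0. Chrna4 (ENSMUSG00000027577.14, chromosome 2, 181018380 to 181043546) ran from 7.32 over 9.06 to 11.2 CPM in wildtype and from 7.47 over 8.94 to 13.5 CPM in APPko. APPko library 3 was the highest of the 14 and the other 7 APPko libraries lay inside the wildtype range. Its log2 change was 0.0034 (SE 0.15), with an interval from 0.810-fold to 1.24-fold, and -0.025 without wildtype libraries 2 and 3. Chrnb2 (ENSMUSG00000027950.7, chromosome 3, 89746195 to 89764632), the partner of Chrna4 in the heteromeric channel, averaged 13.7 ± 1.67 CPM in wildtype cultures and 14.2 ± 1.96 CPM in APPko cultures, a log2 change of 0.058 with an interval from 0.878-fold to 1.24-fold. Exons of Adar on the opposite strand cover 16.3% of the exon length of Chrnb2, and whether reads were counted by strand is not known here, so the reads of this stretch cannot be assigned to either gene. The log2 change of Adar was 0.78 (edgeR adjusted p = 0.13). Chrna7 (ENSMUSG00000030525.8, chromosome 7, 63098692 to 63212569) was thinly covered, with 20 to 68 counts per library. It averaged 1.44 ± 0.489 CPM in wildtype cultures and 1.60 ± 0.508 CPM in APPko cultures, and the interval of its log2 change of 0.15 reaches from 0.766-fold to 1.60-fold. Without wildtype libraries 2 and 3 the log2 change was 0.0155, and in f libraries alone it was 0.55, neither past the threshold.

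Of the serotonin receptors, Htr1a (ENSMUSG00000021721.5, chromosome 13, 105443639 to 105448122, a gene of a single exon), the Gi-coupled receptor that opens G protein-gated potassium channels, ran from 15.3 over 17.5 to 28.7 CPM in wildtype and from 8.45 over 13.9 to 22.4 CPM in APPko. 6 of 8 APPko libraries lay below every wildtype library, while APPko libraries 3 and 8, at 17.6 and 22.4 CPM, lay inside the wildtype range. The log2 change was -0.46 (SE 0.20, 95% interval -0.87 to -0.043, edgeR adjusted p = 0.20), and -0.30 without wildtype library 1 (edgeR adjusted p = 0.38). In f libraries alone Htr1a averaged 22.2 ± 6.43 CPM over 3 wildtype libraries and 12.9 ± 3.14 CPM over 7 of APPko, a log2 change of -0.78 that passed (edgeR adjusted p = 0.023) in a fit that called 8.47% of its genes lower. That call was lost without wildtype library 1 (log2 change -0.55, edgeR adjusted p = 0.061) or without wildtype library 3 (-0.80, edgeR adjusted p = 0.058). The call held in each other fit of f libraries without 1 library (edgeR adjusted p from 0.016 to 0.045). In m libraries the order was the opposite, 16.6 ± 2.21 CPM in wildtype (SD, n = 3) and 22.4 CPM in the only APPko library. The test of the difference between suffixes, an interaction term in edgeR that rests on that 1 library, gave a log2 value of 1.21 and an adjusted p of 0.0998.

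Htr4 (ENSMUSG00000026322.9, chromosome 18, 62324204 to 62496577), a Gs-coupled receptor, averaged 5.99 ± 1.91 CPM in wildtype cultures and 6.19 ± 1.69 CPM in APPko cultures. APPko library 5 was the highest at 9.06 CPM and wildtype library 3 the lowest at 3.66 CPM, and the log2 change of 0.050 had an interval from 0.762-fold to 1.41-fold. Without wildtype libraries 2 and 3 it was -0.15 (edgeR adjusted p = 0.83). Drd1 (ENSMUSG00000021478.6, chromosome 13, 54051183 to 54055705), the receptor that couples dopamine to cyclic AMP, was the most variable member. It ran from 2.696 over 3.88 to 13.5 CPM in wildtype and from 2.92 over 6.67 to 9.59 CPM in APPko, a 5.01-fold spread over the 14 libraries. In wildtype, library 1 alone lay above 4.84 CPM, whereas 5 APPko libraries lay at 6.22 to 9.59 CPM and 3 at 2.92 to 3.69 CPM. The log2 change was 0.14 (SE 0.34, edgeR adjusted p = 0.87). The size and sign of this estimate moved with the libraries included, and it passed in none of the fits run. It was 0.67 without wildtype library 1 (edgeR adjusted p = 0.16), 0.013 without wildtype library 3 and 0.019 without APPko library 1. Its sign turned without wildtype libraries 2 and 3 (-0.14, edgeR adjusted p = 0.93) and in f libraries alone (-0.16, edgeR adjusted p = 0.85).

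Adora1 (ENSMUSG00000042429.8, chromosome 1, 134199223 to 134235431), the receptor through which adenosine reduces transmitter release, ran from 48.0 over 57.9 to 104 CPM in wildtype and from 58.2 over 63.8 to 84.0 CPM in APPko. Each APPko library lay above the wildtype median, and wildtype libraries 1 and 6, at 104 and 73.2 CPM, were the highest of their group. The log2 change was 0.0145 (SE 0.15, edgeR adjusted p = 0.97), with an interval from 0.816-fold to 1.25-fold. The log2 change was 0.21 without wildtype library 1 (edgeR adjusted p = 0.29). It was negative without wildtype libraries 2 and 3 (-0.091), in f libraries alone (-0.11) and with the trend over GC content removed (-0.13), with edgeR adjusted p of 0.87, 0.72 and 0.68. Exons of Mybph on the opposite strand cover 20.1% of the exon length of Adora1. As for Chrnb2, the reads of this stretch cannot be assigned to either gene.

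**Figure D3:**
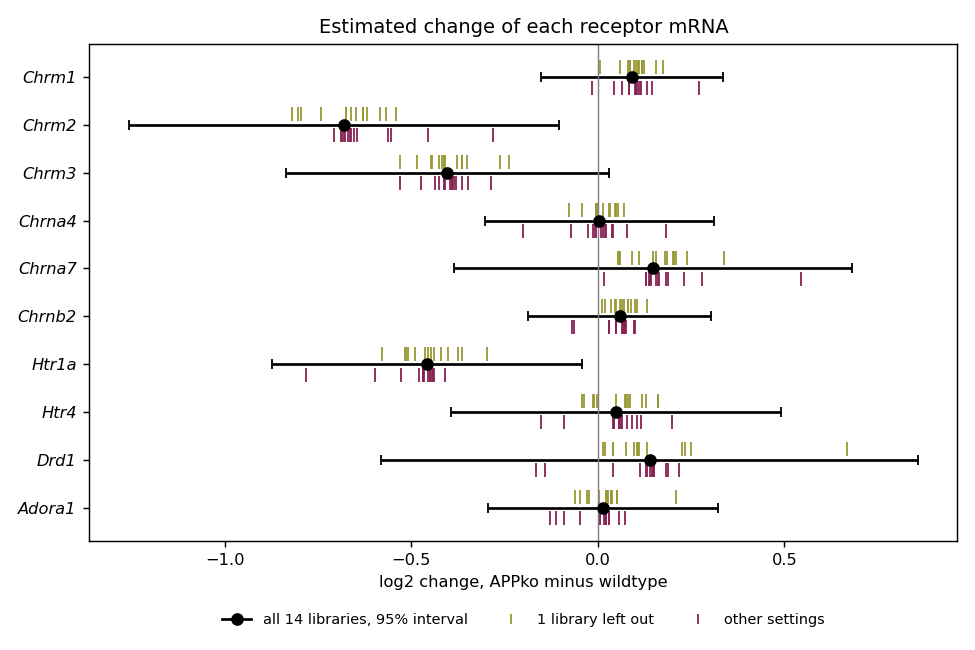
Log2 change of each receptor mRNA, APPko minus wildtype, with its 95% interval from all 14 libraries (black) and the estimates with 1 library left out (upper ticks) or under the other settings (lower ticks). Chrm2, Chrm3 and Htr1a stay below 0 and Chrna7 above it under each setting drawn, and the estimates of the other genes fall on both sides of 0.

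Ratios of 2 members within a library do not depend on library scaling, and 6 pairs chosen by receptor class and G protein were compared with two-sided exact permutation tests over all 3003 splits. No pair passed after adjustment over the 6. The log2 ratio of Chrm2 to Chrm1, the Gi- against the Gq-coupled receptor, was -3.88 ± 0.801 in wildtype and -4.59 ± 0.491 in APPko, a difference of -0.71 (exact p = 0.067, adjusted 0.24). The ratio of Chrm1 to Chrm3 differed by 0.44 (exact p = 0.080, adjusted 0.24). Without wildtype library 5, which had the lowest Chrm3 level, the difference was 0.62 and passed (exact permutation adjusted p = 0.033). The ratio of Chrnb2 to Chrna4, the subunits of one channel, was 0.57 ± 0.347 in wildtype and 0.63 ± 0.198 in APPko (exact p = 0.68). The ratio of Htr1a to Htr4 differed by -0.54 (exact p = 0.16), that of Chrna7 to Chrna4 by 0.16 (exact p = 0.57) and that of Adora1 to Drd1 by -0.18 (exact p = 0.53).

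The members were also compared with each other over the 14 libraries after removal of the genotype means. Of 45 pairs, none passed after adjustment for either Pearson's r or Spearman's rho (100000 permutations within genotype). The pair with the smallest p was Drd1 and Adora1 (r = 0.74, permutation p = 0.0042, adjusted 0.19; rho = 0.53, permutation p = 0.038, adjusted 0.24). Its r was 0.89 in wildtype and 0.55 in APPko, and 0.49 without the 2 libraries farthest from the Drd1 median. These correlations share the library scaling of all genes.

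In 7 families of cholinergic, aminergic and adenosine receptors, 57 genes with the 10 described, 40 were tested and none passed (8 at an unadjusted p of 0.05, against 20.4% of all tested genes). The 17 genes that were not tested had 23 to 86 counts over the 14 libraries. Serotonin receptors had the lowest median after the 3 muscarinic ones, -0.36 against -0.013 over all tested genes, with 9 of 12 negative. Htr1b, a presynaptic Gi-coupled receptor, averaged 3.35 ± 1.29 CPM in wildtype cultures and 1.44 ± 0.805 CPM in APPko cultures, and its edgeR adjusted p was 0.062. Of 3 adenosine receptors tested, Adora2b, which couples to Gs, had 3.89 ± 1.05 and 5.94 ± 1.20 CPM (edgeR adjusted p = 0.082). Chrna5, an accessory nicotinic subunit, stood at 1.41 ± 0.641 and 0.795 ± 0.230 CPM (edgeR adjusted p = 0.16). Drd5, a Gs-coupled dopamine receptor, Adra1d, a Gq-coupled adrenergic receptor, and Hrh2, a Gs-coupled histamine receptor, had the smallest p of their families, with edgeR adjusted p of 0.28, 0.16 and 0.20.

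**Figure D4:**
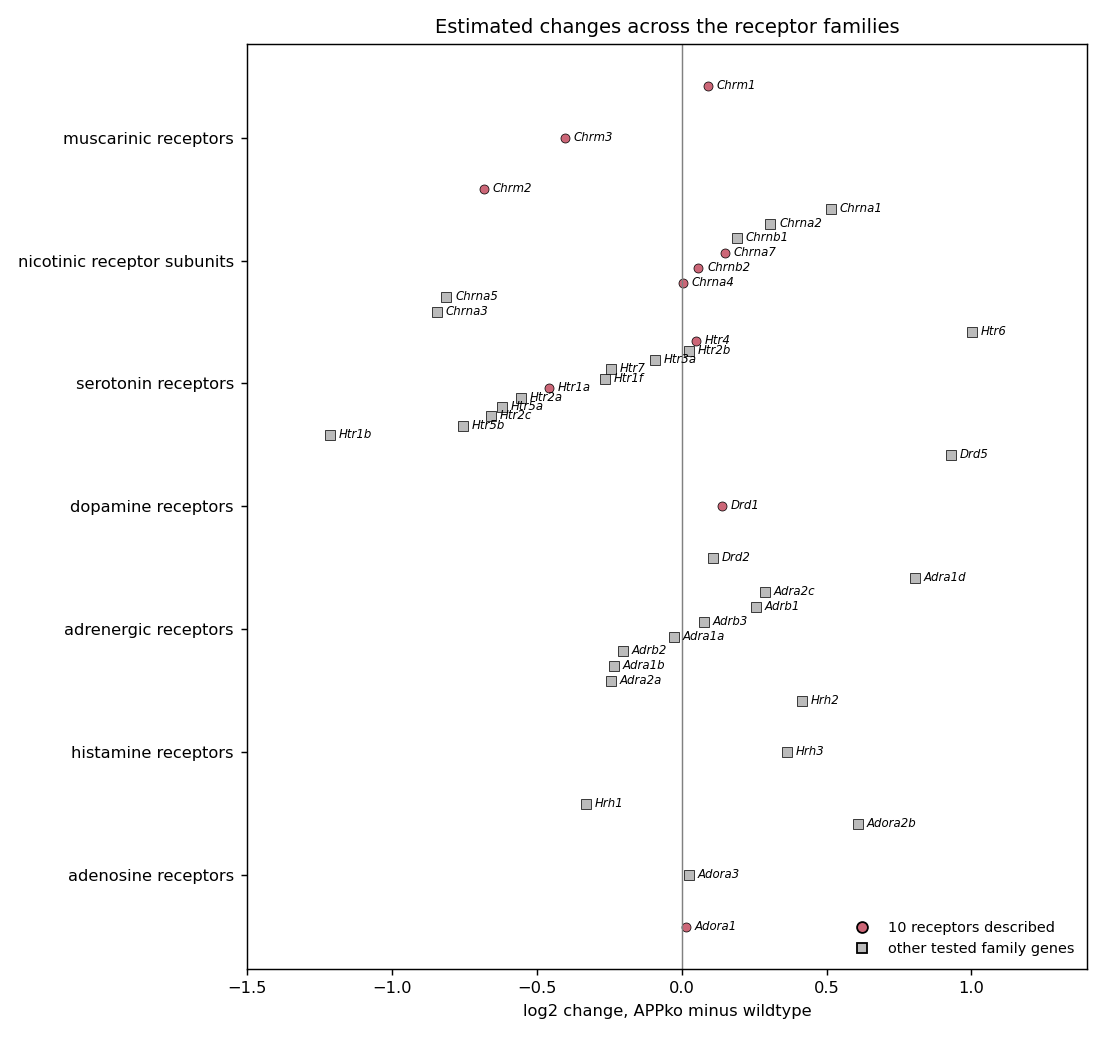
Log2 change, APPko minus wildtype, of the 40 tested genes of 7 receptor families; circles are the 10 receptors described and squares the other genes of each family. 9 of 12 serotonin receptors lie below 0, and no gene drawn passed the adjusted threshold.

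Downstream and around the receptors, few genes passed. Of 10 genes that assemble or modulate nicotinic receptors, Ly6e, a small membrane-anchored protein, rose from 63.4 ± 22.4 to 104 ± 14.5 CPM (edgeR adjusted p = 0.036). Without wildtype libraries 2 and 3 its log2 change was 0.62 and it did not pass (edgeR adjusted p = 0.14). Over the 14 fits without 1 library Ly6e passed in 5. Ric3, a chaperone that nicotinic receptors need for assembly, stood at 65.0 and 65.3 CPM.

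Among 12 genes of the phospholipase C arm 1 passed, Plcb4, a phospholipase C activated by Gq, which fell from 40.2 ± 6.52 to 28.6 ± 3.83 CPM (edgeR adjusted p = 0.038, and in 3 of the 14 fits without 1 library). Without wildtype libraries 2 and 3 Plcb4 did not pass (edgeR adjusted p = 0.16). Its log2 change there was -0.45, against -0.49 with all libraries. Plcb4 passed with DESeq2, with voom and in f libraries alone. It did not pass with the replicate number as a block or with the trend over exon length or GC content removed. None passed among 13 G protein alpha subunits, where Gnai1 stood at 188 ± 70.3 and 124 ± 11.9 CPM (edgeR adjusted p = 0.059), among 25 genes of the cyclic AMP arm, of which 19 were negative and Adcy2 had 28.5 ± 2.34 and 22.5 ± 2.57 CPM (edgeR adjusted p = 0.069), or among 22 receptor kinases, arrestins and RGS proteins, where Grk2 had the smallest p (adjusted 0.13). Enzymes that break down acetylcholine and amines held 0 of 6, with Ache, acetylcholinesterase, at 14.1 ± 2.92 and 18.3 ± 2.59 CPM (edgeR adjusted p = 0.13). Genes of adenosine production and removal held 0 of 13, with Entpd2, an enzyme that degrades extracellular ATP, at 3.03 ± 1.46 and 5.21 ± 0.992 CPM (edgeR adjusted p = 0.12).

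Markers of the cells that could carry these receptors were read beside them. Of 12 granule cell markers 3 passed, Rfx3, C1ql3 and Ntng1, each lower in APPko, and the summed level of the list was 912 to 1520 CPM in wildtype and 638 to 1070 CPM in APPko. None of 12 interneuron markers and none of 15 mossy cell and CA field markers passed, with summed levels of 1420 to 2680 and 1520 to 1980 CPM, and of 756 to 1450 and 924 to 1420 CPM. Of 9 microglia markers Tyrobp and C1qb passed and were higher (406 to 792 CPM in wildtype and 568 to 1000 CPM in APPko for the list). In that list 6 log2 changes were positive and 3 negative, with a median of 0.081. Without wildtype libraries 2 and 3 none of Rfx3, C1ql3, Ntng1, Tyrobp and C1qb passed (edgeR adjusted p from 0.10 to 0.30). In that order, their log2 changes there were -0.36, -0.53, -0.60, 0.78 and 0.66. With all libraries they were -0.52, -0.78, -0.54, 1.07 and 0.92. DESeq2 called each of these genes, voom all but C1ql3, and the edgeR fit of f libraries alone all but Ntng1. An edgeR fit with the replicate number as a block called none of them. Over the 14 fits without 1 library Rfx3 passed in 6, C1ql3 and Ntng1 in 2 each, Tyrobp in 7 and C1qb in 3. None of the 8 astrocyte markers (6440 to 8940 and 5660 to 8450 CPM), 8 oligodendrocyte lineage markers (501 to 1350 and 549 to 932 CPM) or 9 vascular and fibroblast markers (131 to 237 and 130 to 195 CPM) passed. Nor did the 1 cholinergic marker tested (0.289 to 1.87 and 0.296 to 2.33 CPM for the list) or the 5 aminergic ones (21.0 to 36.6 and 21.3 to 25.6 CPM). Of 9 entorhinal and neocortical markers, summed at 210 to 260 and 144 to 243 CPM, 7 had a negative log2 change (median -0.229, 4 of the 9 at an unadjusted p of 0.05), and the 1 that passed, Nxph4, was higher in APPko. The part of these cell types in the receptor values was not tested.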

How the data were processed

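Libraries were made with a low-input kit (12 cycles of cDNA amplification, 10 ng of cDNA, 10 further cycles) and read as 151 bp pairs, per the labels' protocols. Each deposited table gives the raw counts of 1 library by gene symbol. For these the submitters' processing notes list featureCounts 2.0.1, STAR 2.7.8a, cutadapt 3.5 and GRCm38. Settings for strand, multi-mapping and duplicates are not given. Of counts between 20 and 500, 64.7 to 73.1% per library were even numbers; whether mates were counted singly is not stated. Reads without molecular identifiers are not independent molecules.

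Positions and exon lengths came from the deposited GENCODE annotation. Counts were filtered by edgeR's filterByExpr, scaled by TMM and tested by robust quasi-likelihood, with Benjamini-Hochberg adjustment over 22150 genes (edgeR 4.0.16 in R 4.3.3, with DESeq2 1.42.0 and limma 3.58.1 as alternatives). Intervals are 95% and derive from the F statistic. Ratios used log2 CPM with a prior count of 2. All 43 pairs of libraries within a genotype differed by more than sampling noise (chi-square per degree of freedom 8.62 or more). The members, the lists and the pairs were chosen with earlier results of these data known. Beyond the members, the named genes were those of each list past the threshold or, with none, the one with the smallest p; the rule also names the most abundant markers of each cell type list, which are not all given here. Other names outside the rule (Chrm4, Chrm5, Ric3, Adar and single markers) were chosen after their values were seen. The result of 1 listed gene is not reported here. Alternatives were other scalings, tests, filters, covariates, trends and sets of libraries.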

Additional observations from a re-analysis of the deposited data

Results flagged for a closer look

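3 values stood far from the rest of their group by Dixon's criterion at the 95% level, among 20 groups looked at (10 genes in 2 genotypes); chance alone flags about 1 group in 20. Drd1 in wildtype library 1 had 13.5 CPM, with a gap to the next library of 0.802 of the group's range. Adora1 in APPko library 1 had 84.0 CPM (gap 0.632). Chrna4 in APPko library 3 had 13.5 CPM (gap 0.552).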

How the results depend on the processing

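Over 14 other settings and 14 fits without 1 library, 0 of the 10 members passed except for 1, Htr1a, in f libraries alone. The log2 changes of Chrm2 (-0.82 to -0.28), Chrm3 (-0.53 to -0.24), Htr1a (-0.78 to -0.30) and Chrna7 (0.0155 to 0.55) kept their sign in these 28 fits. The sign changed for Chrm1 in 1, Chrnb2 in 2, Drd1 in 2, Htr4 in 7, Adora1 in 8 and Chrna4 in 12 of them. The count of genes called over all tested genes, 521, was 1707 with DESeq2, 1446 with the header suffix as a covariate, 3672 in f libraries alone, 35 without wildtype libraries 2 and 3, 346 with the trend over exon length removed, 211 with the trend over GC content removed (known for 97.9% of tested genes) and 21 with the replicate block. Without 1 library it ran from 38 (without APPko library 5) to 1436 (without wildtype library 4). The cause was not tested. Removal of the GC trend, halving of the counts and leaving out single f libraries for Htr1a were chosen after seeing the data. Same-numbered libraries did not deviate together (correlations -0.34 to 0.19 over 6 pairs, 1 of 6 closest to its own number). The numbers are therefore not taken to pair libraries. By this numbering wildtype libraries 4, 5 and 6 (m) met APPko libraries 4, 5 and 6 (f), in the replicate block as well. The column headers number the m libraries anew, and pairs of m libraries by header number were not checked. With the replicate block 0 members and 0 pairs passed. Of the 6 pairs, 0 passed in the other settings, and 0 to 1 without 1 library. For the replicate block and for f libraries alone, the exact tests had too few arrangements for a single pair to pass after adjustment. The zeros for pairs in those settings therefore say little about the ratios. Of the members Chrna7 had the fewest counts, 20 to 68 per library.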

Other observations

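Nxph4, a secreted protein listed here as a marker of cortex but opposite in direction to 7 of the 9 genes of that list, was, of the 9 list genes that passed with all libraries, the only one to pass in each of the 14 fits without 1 library. Its level was 0.884 ± 0.262 CPM (SD) over the 6 wildtype libraries and 2.37 ± 0.647 CPM over the 8 of APPko, a log2 change of 1.42 (edgeR adjusted p = 0.017), and 1.29 without wildtype libraries 2 and 3 (edgeR adjusted p = 0.0499). Slc18a2, the vesicular monoamine transporter, stood at 20.6 CPM in wildtype and 16.7 CPM in APPko, while Slc6a2, the noradrenaline transporter, had 65 counts and Th, the enzyme of catecholamine synthesis, had 53 counts over the 14 libraries.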
